A study of Mus musculus with 14 samples.

Results

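Kidney was represented by 2 of the 14 libraries of a mouse poly(A)-site survey, 1 from miR-22 knockout and 1 from wild-type tissue, both on the 129S5/SvEvBrd background. They were set against 10 libraries of heart, muscle, liver, lung and white adipose tissue (labelled WAT), each tissue again with 1 miR-22 knockout and 1 wild-type library on the same background. The knockout line is named miR-22D in the labels, and age, sex, the number of animals behind a library and the tissues that shared an animal are not stated in the labels. The 12 libraries were chosen by their tissue label alone. The mESC and 3T3 libraries of the survey took no part in the comparison.

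3P-seq captures the 3′ ends of polyadenylated transcripts, so each tag marks a place where a transcript was cleaved and received its poly(A) tail. A transcript can end at more than one such place, and the choice between a proximal and a distal end decides how much 3′ untranslated region, where microRNAs bind, the message carries. Kidney is built mainly of tubule epithelium, which takes up filtered solutes and nutrients, and its proximal tubule, like the hepatocytes of the liver, makes glucose. The study asked how cellular context bears on microRNA targeting, and miR-22 is the microRNA that the knockout libraries lack. Its mature sequences are shown because they define the genotype term of every comparison. They are from RefSeq (GRCm38.p6, chromosome 11), with the seed, bases 2 to 8, in capitals:
mmu-miR-22-3p: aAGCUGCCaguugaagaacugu
mmu-miR-22-5p: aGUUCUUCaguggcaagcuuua

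The kidney libraries held 2847316 tags (knockout) and 3778688 tags (wild type), and the other 10 held 2036838 to 6010465. Mitochondrial sites took 16.4% and 22.7% of the tags of knockout and wild-type kidney, against 3.52% to 31.3% in the other libraries. Intervals on the same strand that overlapped or touched were merged into 159969 sites, of which 147416 had a tag in a tissue library and 23856 passed the filter on low counts. The labels state that there are no biological replicates. The tests therefore take their spread from how far the 2 genotypes of each tissue depart from a shared genotype term. Part of it was pooled over all sites by edgeR, and p-values measure that spread alone. No annotation of the files' build (mm9) was used, so sites go by chromosome, 3′-end position and strand. The defining markers Umod, Acsm2 and Slc34a1 were not looked up here, the kidney label was not checked against them, and the loss of miR-22 was not checked either. Levels are given as CPM, tag counts brought to a common library size with TMM scaling factors.

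Kidney stood apart from the mean of the other 5 tissues at many sites, and mostly upward. That mean was taken over the fitted log2 levels of the tissues, so a tissue with few or no tags pulls it down. Called by edgeR's quasi-likelihood test, with a limit of 0.05 on the adjusted p and of 4-fold on the difference, 3282 sites were higher in kidney (13.8% of those tested) and 971 were lower (4.07%). The median log2 difference was 3.71 among the sites called higher and -2.88 among those called lower. In knockout kidney 32.3% of the tags lay at the higher sites, and in wild-type kidney 29.4%. Both kidney libraries lay above all other 10 at 1834 of the 3282 sites, where 2247 of all tested sites (9.42%) did so, and below all 10 at 334 of the 971, where 749 of all tested sites (3.14%) did so. The tests were made on whole tissue, in which fewer cells of a type and less RNA per cell cannot be told apart. Scaling by library totals gave 3918 sites higher and 669 lower. It moved the median log2 difference of all tested sites to 0.40, against 0.03 with TMM. The balance of upward and downward calls thus depended in part on the scaling. In this contrast a site high in kidney alone counts in full, while a site high in a single other tissue is diluted in the mean. The excess of higher over lower calls was smaller against single tissues. It ran from 3559 higher and 3304 lower against lung to 4402 and 2760 against muscle. How much of the upward excess comes from the form of the contrast was not tested.

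**Figure D1:**
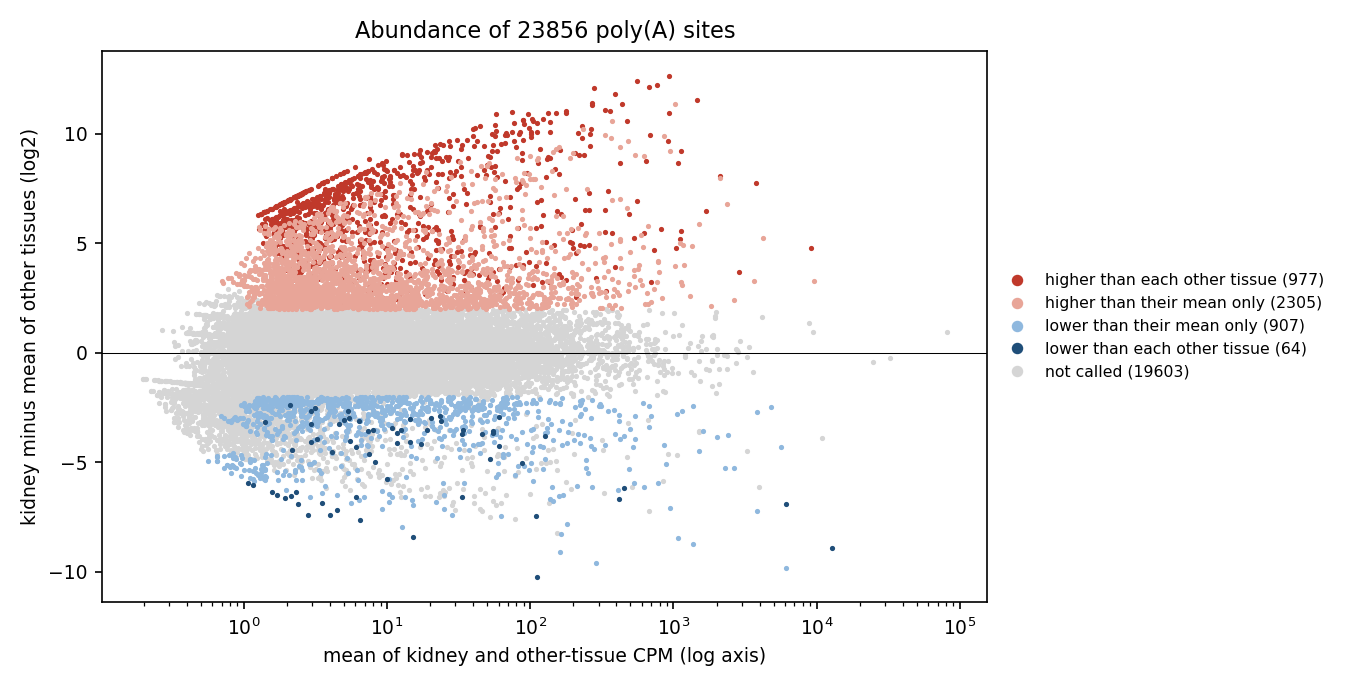
Each point is 1 of the 23856 tested sites, with the mean of the kidney and other-tissue levels (CPM, log axis) across the page and the fitted log2 difference, kidney minus the mean of the other 5 tissues, up the page. The 3282 sites called higher spread up to a difference of 12.65 and outnumber the 971 called lower; dark points passed against each of the 5 tissues.

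A set of 977 sites (4.1% of those tested) was higher in kidney than in each of the 5 other tissues, and 64 (0.268%) were lower than in each (41 with scaling by library totals). To be lower than in each, a site needs tags in all 5 other tissues, so the 977 and the 64 are not like counts. The 977 took 16.4% of the tags of knockout kidney and 14.8% of those of wild-type kidney, against 0.152% to 0.871% in the other 10 libraries, which follows from how they were chosen. The 64 took 0.0153% and 0.0118% of the tags of knockout and wild-type kidney, against 0.214% to 9.36% elsewhere. By chromosome, the share of tested sites called higher ran from 9.71% (chromosome 18) to 17.2% (chromosome 3) among the autosomes. Chromosomes 4 and 13 held the highest shares of sites higher than each tissue, with 6.83% and 6.73%. Of 49 mitochondrial sites 20 were called higher and none passed against each tissue.

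The 12 sites with the largest differences, taken from 395 called sites with a mean kidney level of at least 50 CPM and both kidney libraries above the rest, are called K1 to K12 here; their low level elsewhere is what they were chosen on. K1 on chromosome 6 (133799869 to 133800125, minus strand) had 2026 CPM in knockout and 1699 CPM in wild-type kidney. The other 10 libraries had from 0 to 37.8 CPM there, with a median of 0. The lowest kidney value was 44.9 times the highest other value, and the groups lay far apart. The fitted difference was 12.65 ± 0.455 (log2, SE), with an adjusted p of 1.59e-31 in edgeR's quasi-likelihood test; it was 12.01 without knockout kidney, 13.36 without wild-type kidney and 13.80 without wild-type white adipose tissue. In edgeR the adjusted p at K1 was 1.43e-171 with no filter on low counts and 1.47e-16 without the genotype term. DESeq2 gave 12.35 at K1 with an adjusted p of 0.00358. Over K1 to K12 its adjusted p ran from 4.59e-85 at K4 to 0.00692 at K12, so the size of p at these sites depends on the model. Fitted differences of this size depend on the small count edgeR adds where a tissue has no tags, so the ratio of the lowest kidney to the highest other library is given as the plainer measure.

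K2 and K3 lie on opposite strands of chromosome 7. K2 (126739894 to 126740110, plus strand) had 1421 CPM in knockout and 792.2 CPM in wild-type kidney, against at most 17.8 CPM elsewhere. K3 (126606209 to 126606411, minus strand) had 1261 CPM in knockout and 1780 CPM in wild-type kidney, against at most 13.7 CPM elsewhere. Their kidney libraries were ordered in opposite ways, the knockout higher at K2 and the wild type higher at K3, and both sites were at 0 in both heart libraries. The fitted differences were 12.41 ± 0.449 (adjusted p = 1.7e-31, edgeR) at K2 and 12.23 ± 0.417 (adjusted p = 2.52e-32, edgeR) at K3. Without wild-type white adipose tissue they were 13.26 at K2 and 13.11 at K3. At K2 the difference was 11.72 without knockout and 13.09 without wild-type kidney, and at K3 it was 12.81 without wild-type muscle.

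K7 on chromosome X (160556454 to 160556813, plus strand) had the highest kidney level of the 12, with 2796 CPM in knockout and 2999 CPM in wild-type kidney. Its highest value elsewhere was 43.3 CPM in wild-type liver, so that the lowest kidney value was 64.6 times the highest other. The fitted difference was 11.57 ± 0.413 (adjusted p = 4.89e-32, edgeR). K4 on chromosome 13 (23987483 to 23987604, plus strand) had 1013 CPM in knockout and 1677 CPM in wild-type kidney, against at most 40.0 CPM elsewhere, which left the smallest gap of the 12 at 25.3 times. K9, also on chromosome 13 (55514939 to 55515234, plus strand), had 827.0 CPM in knockout and 926.8 CPM in wild-type kidney, against at most 8.94 CPM elsewhere, the widest gap at 92.5 times.

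At the remaining 6 sites of this group the lowest kidney value was 49.8 to 81.5 times the highest other. These were K5 on chromosome 8 (22905588 to 22905655, plus), K6 on chromosome 3 (98678441 to 98678835, minus), K8 on chromosome 17 (43611257 to 43611377, minus), K10 on chromosome 15 (89167352 to 89167445, plus), K11 on chromosome 13 (4585660 to 4585808, plus) and K12 on chromosome 4 (95711899 to 95711993, minus). K10 differed most between the kidney libraries, with 767.4 CPM in knockout and 300.4 CPM in wild-type kidney. K8 differed least, with 528.3 CPM in knockout and 550.7 CPM in wild-type kidney.

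The few tags that the 12 sites had outside kidney were not spread evenly. Knockout liver held 459 of them and wild-type liver 723, and every one of the 12 sites had tags in both liver libraries. Their level was 0.634% to 1.66% (median 1.08%) of the kidney level in knockout liver and 0.820% to 2.98% (median 1.13%) in wild-type liver. Wild-type white adipose tissue also had tags at all 12, 100 in all with a median of 0.249% of the kidney level, while knockout white adipose tissue had 7 tags and was at 0 at 7 of the 12. Heart had 0 tags at all 12 in both libraries, lung had 2 and 3, and muscle had 5 and 3 (knockout and wild type each time). Kidney was also read at sites leading in another tissue, chosen without the kidney libraries as those with at least 50 CPM in that tissue and at least 20 times the level of the rest. Over 380 sites leading in liver, the median level was 1.35% of the liver level in knockout and 1.06% in wild-type kidney, the upper quartile was 10.7% and 9.44%, and the summed level 7.22% and 8.01%. Over 203 sites leading in kidney, chosen without the liver libraries, liver had a median of 3.52% of the kidney level in the knockout and 3.62% in the wild type, and a summed level of 85% and 96.8%. Some sites were thus as abundant in liver as in kidney, while K1 to K12 were chosen for low levels outside kidney. Over 54 sites leading in heart the median was 0 in both kidney libraries, and the summed level 0.0665% in knockout and 0.0879% in wild-type kidney. Over 40 sites leading in lung the median was 0.0568% in knockout and 0.0819% in wild-type kidney, and the summed level 6.84% and 8.22%. The source of the liver and adipose tags was not tested.

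**Figure D2:**
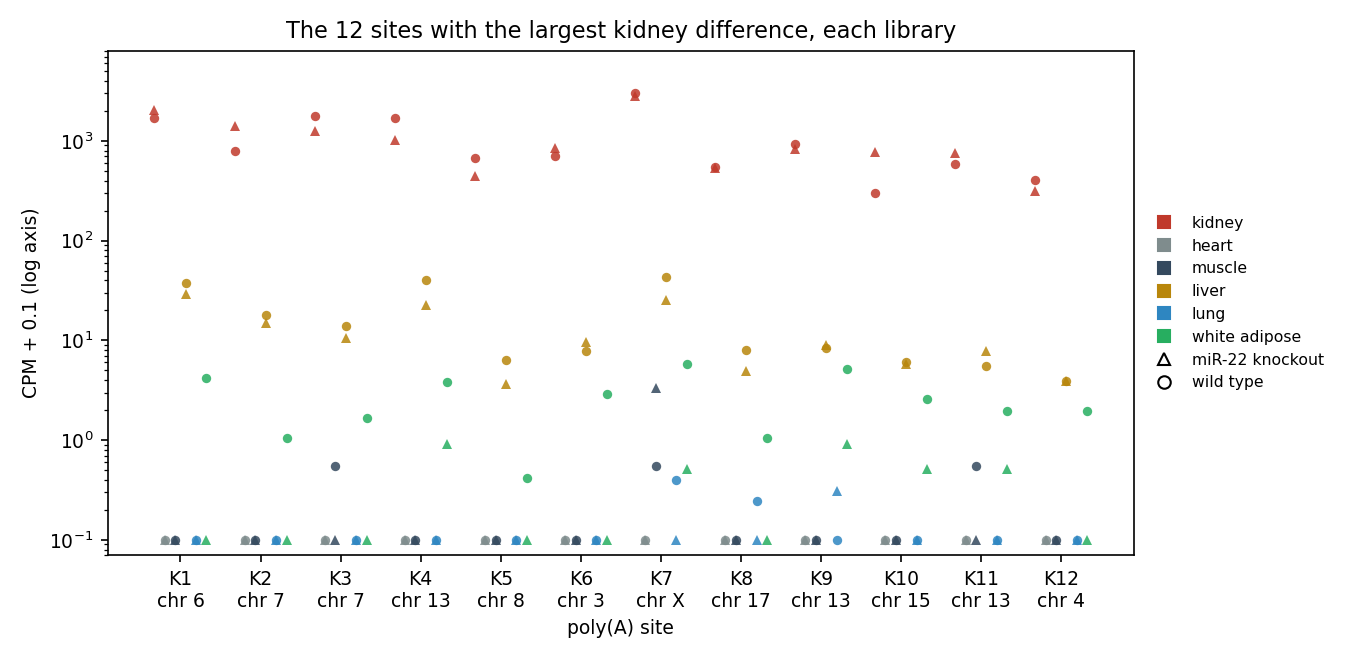
Levels (CPM + 0.1, log axis) at K1 to K12 in each of the 12 libraries, triangles for miR-22 knockout and circles for wild type. Kidney lies between 300.4 and 2999 CPM, both liver libraries lie next at no more than 43.3 CPM, and heart lies at 0 CPM at every site.

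The 8 sites of highest kidney level among the 977, K7 being 1 of them, all had tags in other tissues as well. On chromosome 11, a site at 54723703 to 54723899 (plus strand) had 18230 CPM in knockout and 16650 CPM in wild-type kidney. The other 10 libraries had 206.8 CPM at the lowest, 666.7 CPM at the median and 2049 CPM at the highest, in knockout white adipose tissue. It was thus present in every tissue and at its highest in kidney, with a fitted difference of 4.78 ± 0.275 (adjusted p = 4.16e-23, edgeR). A chromosome 9 site at 45218218 to 45218410 (plus strand) had 7223 CPM in knockout and 7656 CPM in wild-type kidney, against 7.35 to 108.4 CPM (median 56.8) elsewhere. Its kidney libraries were 66.6 times or more above all others, and the fitted difference was 7.74 ± 0.287 (adjusted p = 8.22e-32, edgeR). A chromosome 1 site at 166367211 to 166367615 (minus strand) had 5257 CPM in knockout and 5094 CPM in wild-type kidney, against 54.8 to 882.3 CPM (median 609.0) elsewhere. The gap there was the narrower one of 5.77 times, with heart and lung next and a fitted difference of 3.72 ± 0.279 (adjusted p = 6e-18, edgeR).

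At 3 of these abundant sites lung came next after kidney. On chromosome X, a site at 159399897 to 159400118 (minus strand) had 3181 CPM in knockout and 5025 CPM in wild-type kidney, against 453.0 CPM in knockout and 593.2 CPM in wild-type lung and no more than 49.5 CPM in the other 8 libraries. The chromosome 4 site at 114766414 to 114766497 (plus strand) had 2193 CPM in knockout and 2246 CPM in wild-type kidney, against 71.9 CPM in knockout and 128.9 CPM in wild-type lung and no more than 22.8 CPM in the other 8. Kidney exceeded lung by 2.95 at the first (adjusted p = 9.37e-07) and by 4.52 at the second (adjusted p = 8.35e-11), as fitted log2 differences in edgeR. A chromosome 19 site at 3989746 to 3990011 (plus strand) had 3736 CPM in knockout and 2804 CPM in wild-type kidney, against 3.62 to 212.0 CPM elsewhere, with liver next. A chromosome 5 site at 24771672 to 24771743 (plus strand) had 1560 CPM in knockout and 2841 CPM in wild-type kidney, against 19.4 to 85.8 CPM elsewhere, with lung and liver next and close to each other. All these abundant sites passed against each tissue, and at none of the 19 sites of both kidney-high groups did mESC or 3T3 exceed the highest of the other tissue libraries.

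Set against 1 tissue at a time, kidney had its lowest count of higher sites against liver and its highest against muscle. Higher in kidney were 4402 sites against muscle (18.5%), 3603 against white adipose tissue (15.1%), 3559 against lung (14.9%), 3387 against heart (14.2%) and 2885 against liver (12.1%). Lower in kidney were 3304 sites against lung (13.8%), 2760 against muscle (11.6%), 2632 against white adipose tissue (11.0%), 2624 against heart (11.0%) and 2297 against liver (9.63%). These 5 comparisons share the kidney libraries, and differences between their counts were not tested. Of the 3282 sites higher than the mean, 1745 (53.2%) also passed against liver, where 2491 to 2915 (75.9% to 88.8%) passed against each of the other 4. At 327 of the 3282 kidney was called lower than liver. A total of 1185 sites passed 4 contrasts and missed 1, and for 780 of them the missed tissue was liver, for 195 lung, for 82 heart, for 77 white adipose tissue and for 51 muscle. Without both liver libraries, 1648 sites were higher than each remaining tissue and 396 were lower than each, and 1820 were lower than the mean of the remaining 4. Any tissue left out leaves fewer contrasts to pass. Without heart, muscle, lung or white adipose tissue in turn, 1084, 1036, 1117 and 1081 sites were higher than each remaining tissue. Lower than each were 87, 79, 101 and 85.

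**Figure D3:**
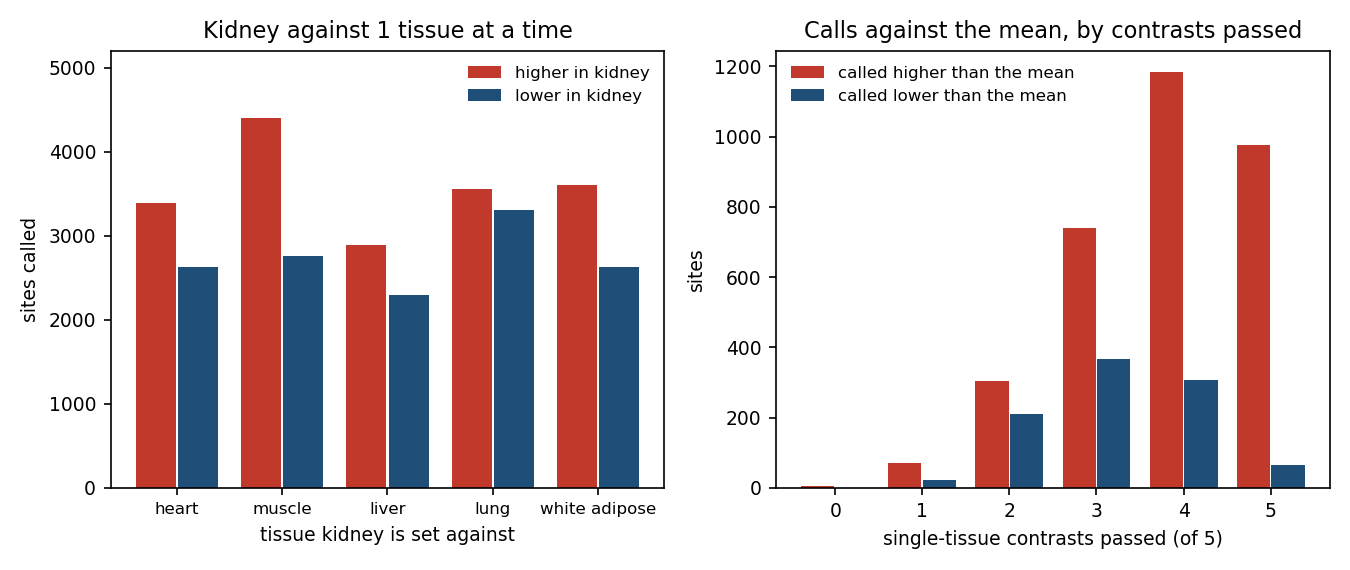
Left, sites called higher (red) and lower (blue) in kidney against each tissue, with the fewest higher calls, 2885, against liver. Right, sites called against the mean of the 5 tissues by how many of the 5 single-tissue contrasts they also passed; 977 of the higher and 64 of the lower passed all 5.

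Of the 780 sites that missed only the contrast with liver, the one of highest kidney level was a chromosome 13 site (62966102 to 62966312, minus strand). It had 2720 CPM in knockout and 3810 CPM in wild-type kidney, against 4630 CPM in knockout and 5100 CPM in wild-type liver and no more than 7.52 CPM in any other library. Against the mean of the 5 tissues kidney was higher by 7.99 ± 0.313 (adjusted p = 5.7e-31), while against liver the difference was -0.58 (adjusted p = 0.368, both from edgeR). So this end was abundant in kidney and liver together and close to absent elsewhere. A chromosome 4 site (138874265 to 138874360, plus strand) was shared in the same way but at a base level in all tissues, with 1470 CPM in knockout and 2600 CPM in wild-type kidney, against 1950 CPM in knockout and 2090 CPM in wild-type liver and at most 398.0 CPM elsewhere.

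Smaller numbers of sites missed only the contrast with a tissue other than liver. Missing a contrast does not make the 2 levels equal. A chromosome 12 site (114496910 to 114497112, minus strand) had 1300 CPM in knockout and 830.0 CPM in wild-type kidney, against 588.0 CPM in knockout and 452.0 CPM in wild-type lung and at most 47.4 CPM in the rest. With heart, a chromosome 19 site (6981180 to 6981443, minus strand) had 6940 CPM in knockout and 5990 CPM in wild-type kidney, against 1560 CPM in knockout and 2740 CPM in wild-type heart and at most 907.0 CPM elsewhere. It passed against the mean (3.28 ± 0.277, adjusted p = 9.02e-16, edgeR). Kidney was higher than heart there too (1.65, adjusted p = 0.00203, edgeR) and missed only the 4-fold limit. With muscle, a chromosome 8 site (118227134 to 118227224, minus strand) had 199.0 CPM in knockout and 325.0 CPM in wild-type kidney, against 226.0 CPM in knockout and 227.0 CPM in wild-type muscle. A chromosome 4 site (155340684 to 155340737, plus strand) had 193.0 CPM in knockout and 384.0 CPM in wild-type kidney, against 140.0 CPM in knockout and 228.0 CPM in wild-type white adipose tissue.

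Sites higher than each tissue were joined into runs where neighbours on a strand were no more than 20000 nt apart. The 977 fell into 585 runs, of which 382 held 1 site, 115 held 2 and 88 held 3 or more. How closely tested sites in general lie together was not examined, and a site with tags in kidney alone can enter the tested set, so these counts only describe the 977. The longest run held 10 sites on chromosome 4 (95688817 to 95711924, minus strand), K12 among them, and summed to 411.0 CPM in knockout and 498.0 CPM in wild-type kidney, against at most 4.93 CPM in any other library. A second run on chromosome 4 (15832289 to 15835210, plus strand) packed 9 sites into 2921 nt, with 411.0 CPM in knockout and 942.0 CPM in wild-type kidney, against at most 9.32 CPM elsewhere. On chromosome 9 a run of 9 sites (123499887 to 123503940, minus strand) summed to 173.0 CPM in knockout and 221.0 CPM in wild-type kidney, against at most 4.11 CPM elsewhere. K2 and K9 were each the strongest member of a run of 7, on chromosome 7 (126735780 to 126744203, plus strand) with 2200 and 1270 CPM, and on chromosome 13 (55504355 to 55516051, plus strand) with 1700 and 1910 CPM, in knockout and wild-type kidney. Their sums elsewhere reached at most 28.0 and 22.2 CPM. Whether the sites of a run end transcripts of 1 gene was not determined.

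Tags in both kidney libraries and in none of the other 10 were found at 2433 sites, which together held 0.263% of the kidney tags. Only 144 of them had 20 or more tags and 89 were in the tested set, so most of these sites rest on a few tags. The strongest, on chromosome 19 (38424065 to 38424096, plus strand), had 45 tags in knockout and 76 in wild-type kidney, at least 222-fold higher than the level that 3 counts over the 10 libraries would give. A chromosome 7 site (126739777 to 126739860, plus strand), just upstream of K2, had 65 and 27 tags in knockout and wild-type kidney, at least 169-fold higher. On chromosome 4 (25537972 to 25538003, minus strand) 51 and 30 tags were found in knockout and wild-type kidney, and 4 in the mESC library. Counted the same way, liver had 3248 such sites, lung 4367, heart 1336, muscle 901 and white adipose tissue 871, at library depths that differ.

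Sites lower in kidney were fewer, and the strongest were ends abundant in heart or muscle. The leading 6 were taken by their difference from 79 called sites with a mean of at least 50 CPM elsewhere and both kidney libraries below the rest. A chromosome 3 site (67203758 to 67204010, plus strand) had 0 tags in both kidney libraries, against 5510 tags over the other 10, with 388.3 to 779.6 CPM in heart and muscle and 1.28 CPM at the lowest, in knockout liver. Taking 3 counts over the 2 kidney libraries as the floor, it was at least 332-fold lower in kidney than in the other 10 libraries pooled. Most of the pooled tags were in heart and muscle. Liver held only 4 (knockout) and 8 (wild type), so this bound does not hold against each tissue alone. Another chromosome 3 site (141965273 to 141965343, minus strand) had 0.270 CPM in knockout and 0.946 CPM in wild-type kidney, against 1795 to 2518 CPM in the heart and muscle libraries and 2.55 to 18.0 CPM in the other 6. The fitted difference was -6.66 ± 0.639 (adjusted p = 1.2e-13, edgeR) and -7.56 without wild-type kidney, and the difference from liver alone was the smallest of the 5, at -2.13 (adjusted p = 0.0271).

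The other 4 sites of the low group had 1 to 4 kidney tags in all. On chromosome 6 (71163934 to 71164024, minus strand) there was 1 tag in kidney, against 4828 elsewhere, and the difference was -7.43 ± 0.792 (adjusted p = 5.13e-12, edgeR), and -9.27 without wild-type kidney, which held that tag. The chromosome 19 site (36806208 to 36806257, minus strand) had 2 kidney tags, against 1497 elsewhere, spread over muscle, heart and liver. The remaining sites, on chromosome 3 (96333100 to 96333138, plus strand) with 4 kidney tags against 6792 and on chromosome 1 (138016046 to 138016121, plus strand) with 1 against 6208, did not pass against every tissue. At the chromosome 1 site muscle alone was high, with 2045 CPM in the knockout and 1312 CPM in the wild-type library. With so few tags in kidney, the depth sets how small a kidney level could be seen.

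The use of neighbouring sites was tested on pairs of same-strand sites 100 to 5000 nt apart, each with at least 5% of the tags of the pair. Of 8282 neighbouring pairs at these distances, 4252 met this share limit and had at least 20 tags in at least 6 libraries. The distal site took a larger share in kidney at 69 pairs (1.62%) and the proximal site at 90 (2.12%), together 159 pairs (3.74%), at an adjusted p under 0.05 in edgeR's quasi-likelihood test, and 746 pairs had an unadjusted p under 0.05. The median size of the called shifts was 2.23 on the log2 scale of distal over proximal, and the smallest was 1.26. These counts rest on few libraries. Without wild-type kidney they were 16 more distal and 8 more proximal, without knockout kidney 15 and 13, without wild-type liver 31 and 44, without knockout liver 44 and 60, without wild-type muscle 41 and 49, without knockout muscle 45 and 59, and without both muscle libraries 22 and 27, while without both lung libraries 120 were more distal and 113 more proximal. The excess of proximal over distal calls thus turned round when either kidney library, or both lung libraries, were left out. By distance, 1.86% of 1077 pairs under 300 nt apart were called, 2.73% of 1500 pairs from 300 to under 1000 nt and 5.85% of 1675 pairs from 1000 to 5000 nt, a trend that was not tested. Neighbouring sites at the larger distances can end transcripts of different genes, which was not examined.

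Among pairs with at least 20 tags in both kidney libraries, both kidney shares lay above all other 10 at 23 of 63 pairs called more distal and below all 10 at 44 of 86 called more proximal. Over all 3739 such pairs this held at 2.01% and 2.75%. The 5 pairs of smallest p in each direction with kidney outside the range of the rest are called D1 to D5 and P1 to P5. At D1 on chromosome 2 (minus strand, proximal site 91772979, distal site 91769984, 2995 nt apart) the distal site took 89.7% of 425 tags in knockout and 89.6% of 848 tags in wild-type kidney. In the other 10 libraries it took 6% at the lowest, 18.3% at the median and 37.5% at the highest, on 24 to 430 tags a library. Most tags of the pair lay at the distal site in kidney and at the proximal site in the other tissues, a shift of 5.60 ± 0.504 (adjusted p = 2.38e-08, edgeR). Whether the 2 sites end the same transcript was not examined. The change lay in the distal site, with 102.8 CPM in knockout and 179.8 CPM in wild-type kidney, against 1.65 to 5.61 CPM elsewhere. The proximal site did not pass (log2 difference -0.28, adjusted p = 0.68, edgeR).

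D2 on chromosome 7 (plus strand, 31099321 and 31104058, 4737 nt apart) had a distal share of 81.0% of 126 tags in knockout and 87.1% of 101 tags in wild-type kidney, against 4.17% to 33.3% elsewhere on 8 to 72 tags a library. D3 on chromosome 9 (minus strand, 44611446 and 44609777) had 47.7% and 28.7% in knockout and wild-type kidney, against 0% in 8 libraries and 6.67% and 16.7% in knockout and wild-type liver. Liver was thus the only other tissue with tags at the distal end of D3, although the others held as few as 7 tags over the pair. D4 on chromosome 11 (minus strand, 75113855 and 75108869) had 57.9% and 58.3% in knockout and wild-type kidney on 38 and 24 tags, with heart next at 28.9% (knockout) and 47.8% (wild type) and 11 to 38 tags in each of the other libraries. D5, also on chromosome 11 (minus strand, 97550136 and 97546783), had 63.2% and 44.4% in knockout and wild-type kidney, against 0% to 42.9% elsewhere on 11 to 355 tags a library, so that wild-type kidney barely cleared wild-type liver. Without knockout kidney D5 no longer passed (3.00, adjusted p = 0.0625, edgeR; 9.55e-05 to 0.0625 over all alternatives). At all 5 pairs the distal site was itself called higher in kidney in abundance.

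P1 on chromosome 1 (plus strand, proximal site 174304215, distal site 174309173, 4958 nt apart) was the mirror case, with a distal share of 9.09% of 88 tags in knockout and 8.04% of 199 tags in wild-type kidney. The other 10 libraries had 23.8% at the lowest, 88.0% at the median and 100% at the highest, with both liver libraries lowest, at 52.4% (knockout) and 23.8% (wild type). These shares rest on 2 to 41 tags a library, where kidney had 88 and 199. The shift was -6.36 ± 0.633 (adjusted p = 2.26e-07, edgeR), and -6.98 without wild-type kidney and -7.05 without knockout heart. Its proximal site had 21.6 CPM in knockout and 43.3 CPM in wild-type kidney, against at most 4.39 CPM elsewhere, and its distal site did not pass (0.03, adjusted p = 1, edgeR). P2 on chromosome 11 (plus strand, 96162881 and 96167433) had distal shares of 14.7% and 6.67% in knockout and wild-type kidney, against 25% to 90.6% elsewhere on 4 to 630 tags a library, again with a proximal site called higher (3.96) and a distal site that did not pass (-0.02).

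P3 on chromosome 8 (minus strand, 129458042 and 129456606) had 4.95% and 6.74% in knockout and wild-type kidney, against 17.9% to 52.1% elsewhere on 20 to 68 tags a library, and neither of its sites reached the 4-fold limit. P4 on chromosome 3 (plus strand, 60432780 and 60433301) differed in kind, since its distal site was lower in kidney. That site had 12.7 CPM in knockout and 11.3 CPM in wild-type kidney, against 46.0 to 234.7 CPM elsewhere, and its share of the pair was 75.8% and 66.7% in knockout and wild-type kidney, against 90.7% to 98.6% elsewhere on 142 to 693 tags a library. P5 on chromosome 17 (plus strand, 35195663 and 35199037) had 67.3% and 67.4% in knockout and wild-type kidney, against 88.9% to 100% elsewhere on 10 to 377 tags a library, with a proximal site called higher (3.09). Without wild-type kidney, neither P4 (-2.57, adjusted p = 0.217; 8.38e-05 to 0.217 over all alternatives) nor P5 (-3.27, adjusted p = 0.0627; 0.000636 to 0.0627) passed in edgeR.

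**Figure D4:**
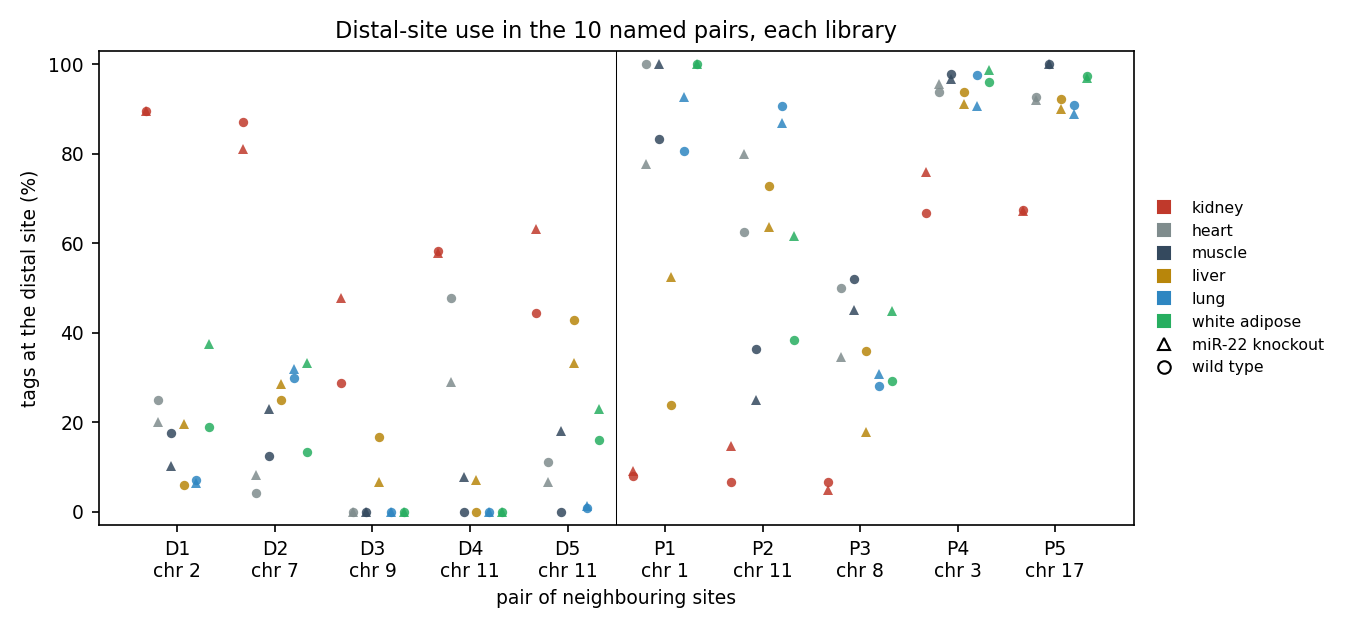
Share of the tags of a pair at its distal site (%), in each of the 12 libraries, for D1 to D5 and P1 to P5. Kidney lies above every other library at the first 5 pairs, at 89.7% (knockout) and 89.6% (wild type) in D1, and below every other at the last 5, at 9.09% (knockout) and 8.04% (wild type) in P1; triangles are miR-22 knockout and circles wild type.

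The called shifts were sorted by which site also passed the abundance limits. Of the 69 pairs more distal in kidney, 23 had a distal site called higher with no call at the proximal site, 9 had a proximal site called lower alone, 1 had both, and 36 had neither site past the abundance limits. Of the 90 more proximal pairs, 35 had a proximal site called higher alone, 10 a distal site called lower alone, 5 had both sites higher, and 40 had neither. Among the 4093 pairs not called, 74 had a distal site higher alone, 69 a proximal site lower alone, 83 a proximal site higher alone, 68 a distal site lower alone, 170 had both sites higher, 57 both lower, and 3572 neither. The shift of a pair and the abundance of its sites come from the same tags.

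The general balance between distal and proximal ends in kidney lay within the range of the other tissues. Over 1651 pairs with at least 20 tags in every library, the median distal share was 51.3% in knockout and 50.8% in wild-type kidney, a mean of 51.03% ± 0.363 (SD, n = 2). The other 10 libraries ran from 46.5% in wild-type white adipose tissue to 55.2% in wild-type lung, with a mean of 50.51% ± 2.61 (SD, n = 10). The difference of 0.516 percentage points had a two-sided exact permutation p of 0.803 over 66 splits, of which the smallest possible is 0.0152, and its sign turned when wild-type heart (-0.172) or wild-type white adipose tissue (-0.0357) was left out. The 2 libraries of a tissue are not independent, so this p is a rough measure.

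**Figure D5:**
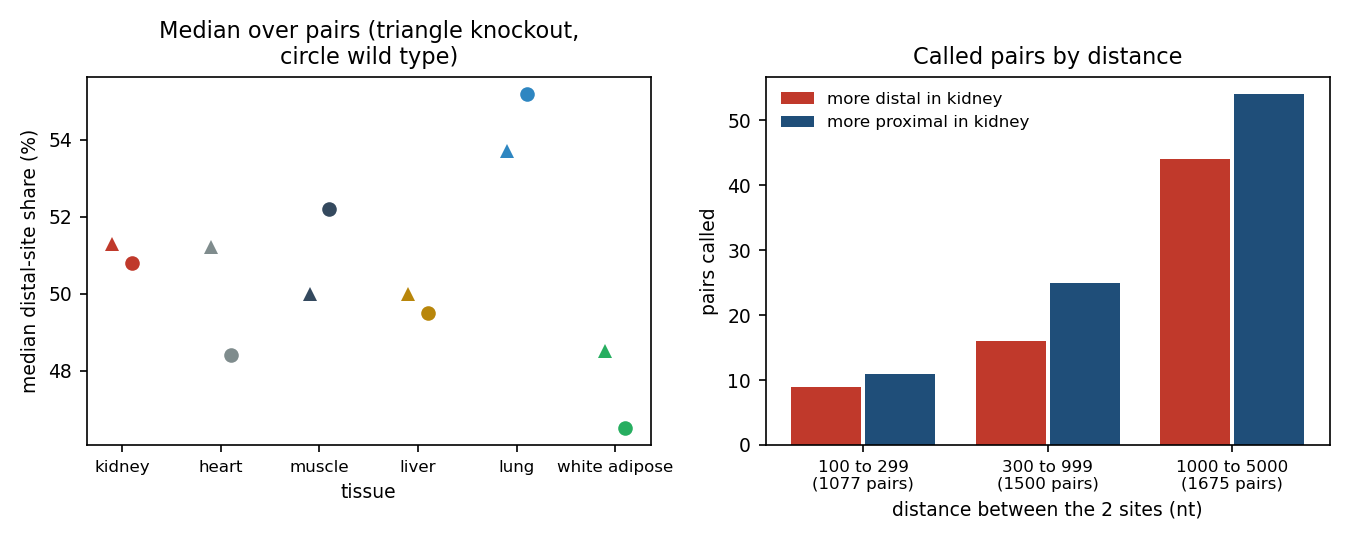
Left, median distal share (%) over 1651 pairs by tissue, triangles for knockout and circles for wild type; kidney, at 51.3% (knockout) and 50.8% (wild type), lies inside the span of the other tissues. Right, pairs called more distal (red) and more proximal (blue) in kidney by the distance between their sites, from 9 and 11 under 300 nt to 44 and 54 at 1000 to 5000 nt.

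The 2 kidney libraries were set side by side without a test, since each genotype had 1. Over 4292 sites with at least 20 CPM in kidney, the median log2 ratio of knockout over wild type was -0.18 with TMM scaling and 0.05 with library totals, so its sign depended on the scaling. With TMM, 223 of these sites were at least 2-fold higher and 439 at least 2-fold lower in knockout kidney (15.4% in all), and with library totals 389 were higher and 214 lower. Among the 361 such sites that were higher than each tissue, 20 were at least 2-fold higher and 34 at least 2-fold lower in knockout kidney with TMM (15.0%), and 38 and 22 with library totals (16.6%). At K2 and K10 the knockout was the higher library, by the CPM given above, and at K3 and K4 the wild type.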

How the data were processed

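3P-seq tags were measured in 12 tissue libraries of 2036838 to 6010465 tags; this depth sets how low a level can be seen. For each poly(A) site the authors deposited an estimated count of tags, unscaled; 1.21% to 5.79% of a library's sites carry a value that is not whole, for reasons not given in the sources used here. Per the submitters' processing notes, CASAVA 1.7, Bowtie and the build mm9 were used; neither a version of Bowtie nor the grouping of tags into sites is given in the sources used here. The offset of 1 in the track lines was ignored, which leaves positions uncertain by 1 nt. Positions are 1-based.

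Same-strand intervals that overlapped or touched were merged over all 14 libraries, summed and rounded to whole numbers, and a site's position is the 3′ end of its strongest interval. Sites were kept by filterByExpr (minimum count 10, tissue as group), scaled by TMM and fitted in R 4.3.3 with edgeR 4.0.16's quasi-likelihood test on tissue and genotype (5 residual degrees of freedom, biological coefficient of variation 0.31), with Benjamini-Hochberg adjustment over all tested sites. Calls needed an adjusted p under 0.05 and 4-fold. Pair use was fitted on proximal and distal counts with library terms and with tissue and genotype acting on the distal counts, adjusted over all tested pairs. The test of kidney against the mean of the other tissues and the pair test were tried on simulated counts, the latter with a set spread instead of the fitted one. The merging, the low-count filter, the single-tissue contrasts and the permutation test were not simulated. Alternatives were DESeq2 1.42.0, other scalings, filters, merges and pair limits, no genotype term, and each library or tissue left out.

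Named sites were the 12 of largest difference, the 8 of highest kidney level among those higher than each tissue (K7 fell under both rules) and the 6 of lowest difference, with the limits given beside them. Named pairs were the 5 of smallest p per direction outside the range of the other libraries. The sites shared with 1 other tissue, the runs and the sites with tags in kidney alone were chosen after their values were seen. The shared sites were drawn from those of highest kidney level among sites that missed only that contrast. Members, lists and rules were chosen with earlier results of these data known. Gene markers were listed but not looked up, because the reference tables used another build than mm9; no site carries a gene name or a sequence.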

Additional observations from a re-analysis of the deposited data

How the results depend on the processing

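Direction and call against the mean, though not the size given for each, held for the 25 named sites in all 600 values recomputed under the alternatives. For the 10 named pairs direction and call held in 200 of 203 values, the exceptions being D5, P4 and P5, given with their values. These sites and pairs were chosen from the same data as strong or abundant, so this says little about the other calls. Whether a named site still passed against each tissue was not recomputed site by site. The 203 values, and the p ranges given over all alternatives, cover only pairs that an alternative still tested. A limit of 50 tags a pair kept only D1 and P4, and the narrower range of distances kept only D3, P3 and P4. A share of at least 10% at each site left out D3 and P4. DESeq2 called 2563 sites higher and 1081 lower. An adjusted p alone, without the 4-fold limit, gave 5308 higher and 2221 lower, and no filter on low counts gave 5754 higher from 147416 sites tested. Scaling by library totals left 41 sites lower than each tissue; 85.4% of its calls were higher, against 77.2% with TMM. Without both liver libraries there were 1820 lower than the mean, 1648 higher than each tissue and 396 lower than each. Counts against each tissue can rise whenever a tissue is left out, since fewer contrasts have to pass. Without both lung libraries 101 were lower than each and 120 pairs were more distal against 113 more proximal, and without both muscle libraries 22 pairs were more distal and 27 more proximal. A limit of 50 tags gave 41 and 49 pairs, and a narrower range of distances, from 300 nt, gave 23 and 45. Leaving out 1 library in turn gave 3259 to 4436 sites higher and 844 to 1001 lower, 717 to 1010 higher than each tissue and 48 to 72 lower than each, from 28004 to 30030 sites tested, since the filter then keeps sites seen in 1 library. Pairs ran from 15 to 101 more distal and from 8 to 124 more proximal. The difference in median distal share ran from -0.172 (without wild-type heart) to 0.997, with -0.0357 without wild-type white adipose tissue. Where no construction is named the cause was not tested. The genotype that tissues share was a term in the fits of sites and pairs, and dropping it gave 3308 sites higher and 980 lower; the labels hold no replicate numbers to pair by. Kidney and genotype have 1 library per combination, so no p-value here covers differences between animals, and depth limits the sites with a few kidney tags most.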
